A study of Mus musculus with 6 samples.

Results

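Interferon-stimulated genes were described in 21EM15 cells, an epithelial line derived from the mouse lens, by the genes of a fixed list of 39 names. Rigi and Ddx58 in that list are the same gene, so it held 38 genes, of which 37 had a probe on the array under their platform symbol. These 37 genes had 72 of the 45281 probes, and 30 of them entered the test, among 9200 genes in all. RNA was measured on 6 one-colour Illumina bead arrays. The 3 Tdrd7 shRNA arrays (numbered 4, 5 and 6 in the scanner table) held cells with a lentiviral construct carrying a short hairpin RNA against Tdrd7, which encodes a Tudor domain protein of RNA granules. The 3 GFP control arrays (numbered 1, 2 and 3) held cells with a lentiviral construct carrying GFP. Both groups thus carried a lentiviral construct, no hairpin is named for the GFP construct, and no cells without a construct were analysed here. The effect of a construct on these genes therefore could not be measured, and effects of the hairpin itself and of less Tdrd7 cannot be told apart. Whether the 3 samples of a group were grown separately is not stated, and the p-values therefore reflect how much these samples differ, which may be technical.

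Interferons are secreted proteins that cells make on sensing viral nucleic acid in the cytoplasm or in endosomes. Type I interferon binds the receptor of Ifnar1 and Ifnar2, the kinases Jak1 and Tyk2 are then activated, and a complex that holds Stat2 and Irf9 binds the interferon-stimulated response element (ISRE) in the promoters of its target genes. Interferon gamma acts through another promoter element, GAS. The proteins made from the induced genes degrade viral RNA, stop translation, conjugate Isg15 to other proteins, or sense further nucleic acid.

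The promoters show what these genes share in sequence. RefSeq promoter windows (build GRCm38.p6, from 250 bases before to 50 bases after the start of a gene) were found for 29 of the 38 genes. An ISRE core was searched as GAAA, any 2 bases and GAAA, with its reverse complement TTTC, any 2 bases and TTTC, and was present in a window of 16 of the 29 genes, against 3.99% of all 27025 genes with a window. The GAS letters TTCNNNGAA, which read the same on both strands, were present for 8 of the 29 genes, against 9.55% of all genes, and in Bst2 they overlapped an ISRE hit. The 250 bases before the start are shown 5′ to 3′ for 6 genes, with ISRE hits in capitals. Isg15 (chr4:156200819-156201068, minus strand) had 3 overlapping hits. Ifit3 (chr19:34583279-34583528, plus strand) and Ifit1 (chr19:34640639-34640888, plus strand) had a pair of hits with the same letters at different spacing, but differed in whether their probes gave a signal. Oas1g (chr5:120887614-120887863, minus strand) and Oas1a (chr5:120907526-120907775, minus strand) carried the same run of capitals and differed in signal too. Irgm1 (chr11:48871421-48871670, minus strand) is shown because its probes disagreed, as described with the GTPases.
Isg15: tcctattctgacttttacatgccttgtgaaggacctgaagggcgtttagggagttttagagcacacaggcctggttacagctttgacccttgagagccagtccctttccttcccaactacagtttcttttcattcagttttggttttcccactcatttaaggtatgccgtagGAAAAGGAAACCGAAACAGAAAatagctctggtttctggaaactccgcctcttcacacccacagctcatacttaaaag
Ifit3: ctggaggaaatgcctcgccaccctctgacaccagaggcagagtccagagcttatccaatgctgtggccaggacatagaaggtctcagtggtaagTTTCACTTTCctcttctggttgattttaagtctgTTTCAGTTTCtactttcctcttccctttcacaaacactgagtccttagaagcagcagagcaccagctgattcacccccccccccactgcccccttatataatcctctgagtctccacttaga
Ifit1: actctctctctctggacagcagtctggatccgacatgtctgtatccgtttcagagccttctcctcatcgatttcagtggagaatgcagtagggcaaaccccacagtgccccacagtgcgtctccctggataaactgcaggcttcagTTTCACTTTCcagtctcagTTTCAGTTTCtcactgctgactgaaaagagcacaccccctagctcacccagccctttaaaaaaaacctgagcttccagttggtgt
Oas1g: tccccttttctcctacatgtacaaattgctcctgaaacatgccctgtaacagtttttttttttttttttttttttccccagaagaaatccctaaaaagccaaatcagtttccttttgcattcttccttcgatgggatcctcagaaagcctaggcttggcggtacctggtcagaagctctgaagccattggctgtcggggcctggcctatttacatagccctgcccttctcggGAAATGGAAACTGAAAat
Oas1a: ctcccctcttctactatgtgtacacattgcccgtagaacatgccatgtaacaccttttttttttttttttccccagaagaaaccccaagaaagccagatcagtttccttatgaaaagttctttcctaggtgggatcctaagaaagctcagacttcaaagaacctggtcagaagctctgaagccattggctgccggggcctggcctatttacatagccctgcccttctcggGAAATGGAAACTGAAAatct
Irgm1: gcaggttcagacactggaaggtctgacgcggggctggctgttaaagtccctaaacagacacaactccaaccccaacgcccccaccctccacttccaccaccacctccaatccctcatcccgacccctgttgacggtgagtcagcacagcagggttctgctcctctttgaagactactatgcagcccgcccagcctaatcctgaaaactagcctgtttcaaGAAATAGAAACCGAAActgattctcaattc
These matches describe letters in a window and do not show binding.

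The arrays detected 37.2% to 38.8% of all probes, with a median intensity of 72.6 to 82.6 units, and each correlated with the others at a mean r of 0.957 to 0.976 over the genes tested. A probe counted as detected at a detection p under 0.05, and a gene was tested where a probe was detected on all 3 arrays of at least 1 group. Log2 levels below are after background correction and quantile normalization. Tdrd7, measured first to check the labels, was at 7.67, 7.46 and 8.42 log2 units on Tdrd7 shRNA arrays 4, 5 and 6, against 9.38, 9.80 and 9.93 on GFP control arrays 1, 2 and 3. Its log2 fold change was -1.85 ± 0.28 (SE), with a limma adjusted p of 0.76 over all genes and a two-sided exact permutation p of 0.1, the smallest that 3 arrays against 3 allow. Of 15 lens epithelial markers, 12 were detected on at least 1 array and 8 entered the test, Pax6 and Cryab among them. Foxe3, Pitx3 and Krt18 were detected on none. Fibroblast markers were present too, as 8 of 10 were detected and entered the test, so these lists do not set lens epithelium apart from fibroblasts. Of 12 leukocyte markers with a probe, 9 were detected on no array, including Ptprc and Csf1r, and only Cd3e entered the test. Of 7 endothelial markers, 5 were detected on no array.

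Interferon-stimulated genes differed widely between arrays of the same group. Of the 30 genes tested, 27 were lowest on Tdrd7 shRNA array 5 and 21 were highest on GFP control array 3. Relative to each gene's own mean over the 6 arrays, they averaged -0.20, -0.84 and 0.46 log2 units on Tdrd7 shRNA arrays 4, 5 and 6, against -0.20, -0.10 and 0.86 on GFP control arrays 1, 2 and 3. On Tdrd7 shRNA array 5, 29 of the 30 genes lay below their own mean, and on array 6 of the same group 27 lay above it. On GFP control array 3, 28 lay above their own mean, against 7 on array 1 and 10 on array 2 of that group. Over all 9200 genes the mean deviation of an array lay between -0.02 and 0.02. Without normalization between arrays, the members' mean was 0.079 on array 6, and it was above 0 on arrays 4 (0.067) and 1 (0.090).

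**Figure D1:**
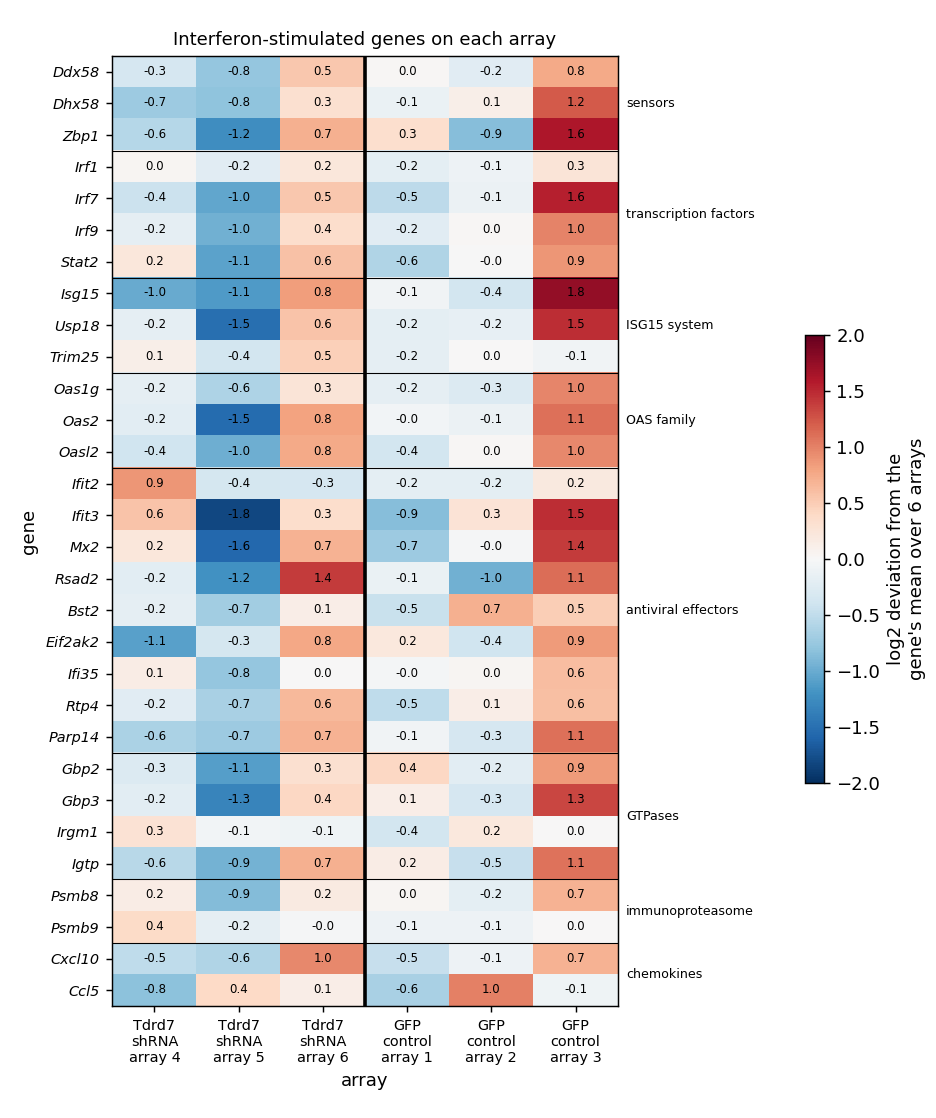
Heat map of the 30 interferon-stimulated genes tested (rows, grouped by role) on the 3 Tdrd7 shRNA arrays (left) and the 3 GFP control arrays (right); each cell is the log2 deviation from the gene's mean over the 6 arrays. Blue cells fill array 5, where 29 of 30 genes are below their mean, and red cells fill array 3, where 28 are above it.

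The order of arrays within a group was shared by most of these genes. Array 5 was the lowest of the Tdrd7 shRNA arrays for 27 of 30 genes, against 29.9% of all genes, and array 6 was the highest of them for 24, against 28.4%. Array 3 was the highest of the GFP control arrays for 26 of 30 genes, against 27.2% of all genes. These 3 arrays were singled out after their values were seen. The SD between arrays of 1 group, pooled over both groups, had a median of 0.75 log2 units over the 30 genes and of 0.27 over all genes. It lay in the top 10% of all genes for 22 of the 30 and below the median gene for 3, which were Irf1, Irgm1 and Psmb9. The highest array exceeded the lowest by a median of 1.42 log2 units within the Tdrd7 shRNA group and 1.26 within the GFP control group, against 0.52 and 0.42 over all genes. Both ranges were larger than the difference between the group means for 29 of the 30 genes, the exception being Psmb9, and for 78.0% of all genes.

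**Figure D2:**
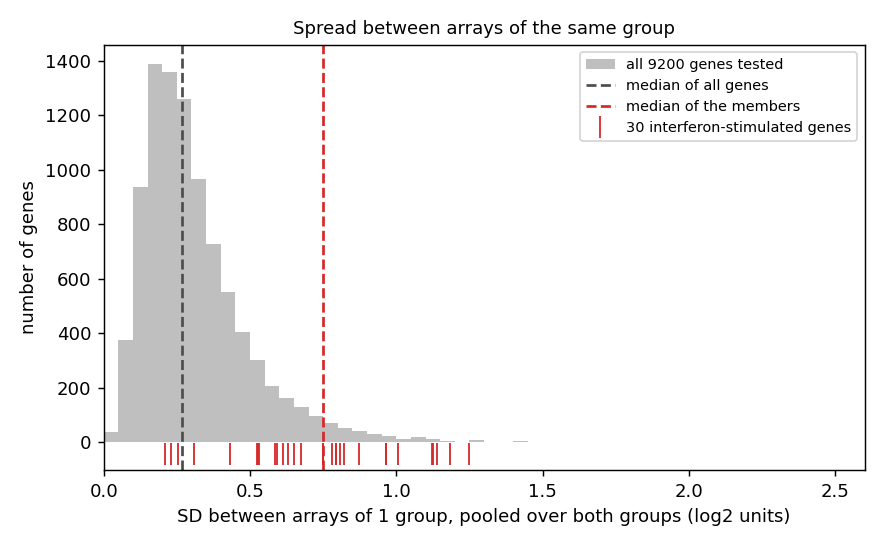
Histogram of the SD between arrays of 1 group, pooled over both groups (x axis, log2 units), for all 9200 genes tested (grey, number of genes on the y axis), with the 30 interferon-stimulated genes as red ticks under it. The dashed lines are the medians, 0.27 for all genes and 0.75 for the interferon-stimulated genes, most of which lie in the right tail.

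The comparison of Tdrd7 shRNA with GFP control asks whether these genes differ with the knockdown. At an adjusted limma p under 0.05, 0 of the 30 genes were called, as were 0 of all 9200 genes (0.00%), and their limma adjusted p-values were 0.998 to 1.00. Without adjustment, 0 of the 30 had a limma p under 0.05, against 303 of all genes (3.29%). On the authors' processed values with the replicate number as a block, 9 of the 30 did, against 432 of all genes. Without the block these counts were 0 and 257, and 0 genes passed adjustment in either fit. The groups did not overlap for 0 of the 30, against 720 of all genes (7.83%). The fitted change was below 0 for 25 of the 30, against 47.7% of all genes, with a median log2 fold change of -0.42 against 0.01. It was at least 1.5-fold lower in Tdrd7 shRNA for 9 of the 30, against 2.11% of all genes, and at least 1.5-fold higher for 0, against 1.47%. Oas2, Rtp4 and Cxcl10 entered only by detection in the GFP control group. They count among the 25, and Oas2 among the 9. With detection required on all 6 arrays, 22 of 27 were below 0, with a median of -0.43 against 0.02 over all genes. When GFP control array 3 was left out, the members' median was -0.06, with 18 of 30 genes below 0. It was -0.09 without Tdrd7 shRNA array 5, with 19 of 31 below 0. It was -0.79 without Tdrd7 shRNA array 6, with 27 of 30 below 0, and the cause of the differences between arrays was not tested. The 95% interval of a gene's change reached a median of ± 1.06 log2 units, or 2.08-fold either way, and held 0 for all 30. These intervals are not adjusted for the number of genes, so their width is not the limit of the adjusted test. Tdrd7, with a fitted change of 3.61-fold, was not called by that test. With 3 arrays per group, changes within these bounds and also larger ones could thus be missed.

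**Figure D3:**
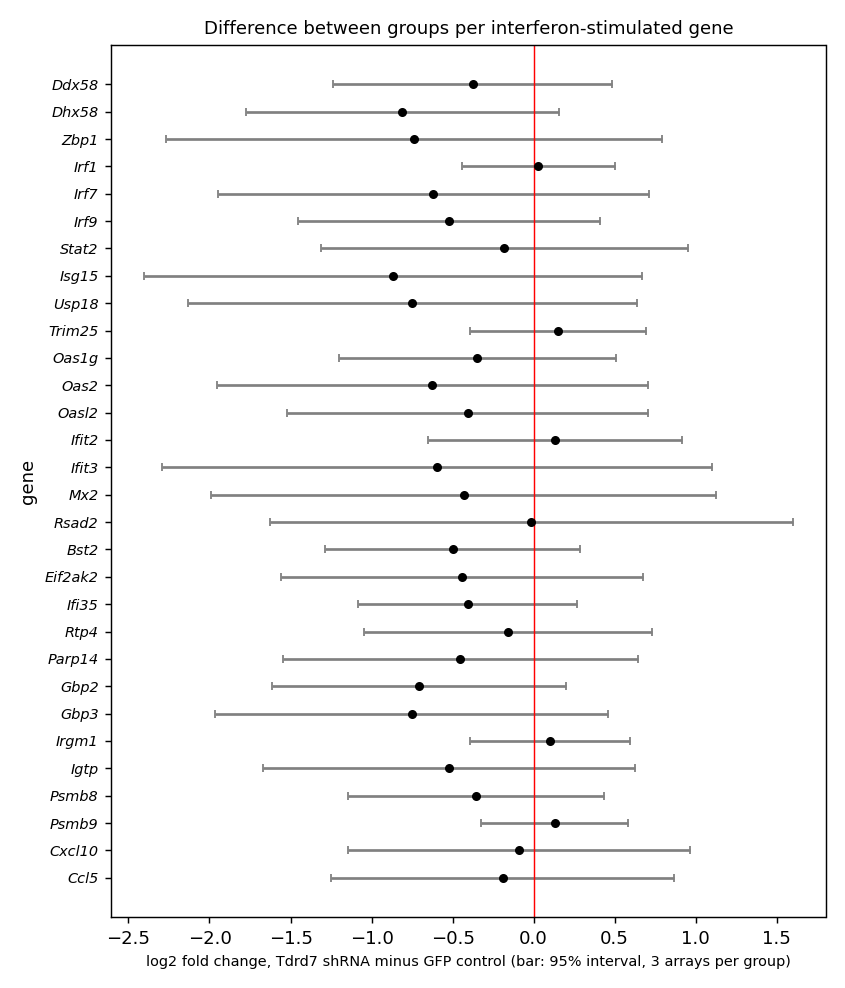
Log2 fold change of Tdrd7 shRNA over GFP control (x axis) for each of the 30 interferon-stimulated genes tested (y axis, by role), with points for the limma estimate and bars for its 95% interval, 3 arrays per group. Of the points, 25 lie left of 0, and every bar crosses 0.

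Sensors of foreign nucleic acid had 3 of 4 genes tested, all with lower fitted values in Tdrd7 shRNA and none past the test. Ddx58 encodes RIG-I, a sensor of viral RNA. It was at 8.01, 7.58 and 8.88 log2 units on Tdrd7 shRNA arrays 4, 5 and 6, against 8.37, 8.12 and 9.10 on GFP control arrays 1, 2 and 3. The groups overlapped, with a difference of -0.38 ± 0.37 (SE). Dhx58, which encodes the related helicase LGP2, was at 8.04, 7.96 and 9.09 on the Tdrd7 shRNA arrays, against 8.64, 8.89 and 9.99 on the GFP control arrays. All its Tdrd7 shRNA values lay below GFP control array 3, but array 6 lay above GFP control arrays 1 and 2, and the difference was -0.81 ± 0.42, with an interval of -1.77 to 0.16. Zbp1, a sensor of left-handed nucleic acid, was at 6.10, 5.43 and 7.38 on the Tdrd7 shRNA arrays, against 7.003, 5.82 and 8.29 on the GFP control arrays. Its highest GFP control array stood 5.56-fold above the lowest, where the difference between the group means was 1.67-fold. A second Zbp1 probe that entered had a smaller spread, with an SD of 0.30 against 1.12, and a difference of -0.29 ± 0.23. Ifih1, which encodes the long-RNA sensor MDA5, had 1 probe, detected on no array.

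All 4 transcription factors were lowest on array 5 and highest on array 6 within the Tdrd7 shRNA group, and highest on array 3 among the controls, and Irf1 varied least. Irf7, which drives interferon genes, was at 6.46, 5.84 and 7.42 log2 units on Tdrd7 shRNA arrays 4, 5 and 6, against 6.36, 6.77 and 8.44 on GFP control arrays 1, 2 and 3. GFP control array 3 stood apart from the other 5 arrays, and the difference of -0.62 ± 0.58 (SE) turned to 0.0080 without it. Irf9, the DNA-binding partner of Stat2, was at 9.60, 8.83 and 10.13 on the Tdrd7 shRNA arrays, against 9.55, 9.81 and 10.77 on the GFP control arrays. It was lowest on array 5 and highest on array 3, with a difference of -0.52 ± 0.41. Stat2 was at 7.57, 6.28 and 7.93 on the Tdrd7 shRNA arrays, against 6.76, 7.34 and 8.23 on the GFP control arrays, so that 2 of its Tdrd7 shRNA values lay above 2 of its control values. Its difference was -0.18 ± 0.49. Irf1, a factor also induced by interferon gamma, was at 11.50, 11.24 and 11.70 on the Tdrd7 shRNA arrays, against 11.28, 11.36 and 11.72 on the GFP control arrays. The groups overlapped almost fully, and its SD between arrays of 1 group was 0.23, against 0.65 to 0.96 for the other factors. This low spread depends on the probe, as the 3 other Irf1 probes that entered had SDs of 0.30, 0.46 and 0.44.

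Isg15, a ubiquitin-like protein, and Usp18, the protease that removes it, were both lowest on array 5 and highest on array 3, but differed on array 4. The scanner intensity of the Isg15 probe was 989, 858 and 2030 on Tdrd7 shRNA arrays 4, 5 and 6, against 1786, 1067 and 4588 on GFP control arrays 1, 2 and 3. After normalization these were 9.58, 9.46 and 11.42 log2 units, against 10.51, 10.21 and 12.34. Tdrd7 shRNA array 6 lay above GFP control arrays 1 and 2, and the difference of -0.87 ± 0.67 (SE) was the largest in size among the 30 genes. Usp18 was at 9.86, 8.52 and 10.60 on the Tdrd7 shRNA arrays, against 9.83, 9.87 and 11.51 on the GFP control arrays. Only Tdrd7 shRNA array 5 lay below all controls, and the difference was -0.75 ± 0.60. Trim25, a ubiquitin ligase that acts on RIG-I, had a smaller spread and a difference of 0.15 ± 0.24. It was lowest on array 5 by the probe used only. A dimmer Trim25 probe that entered was at 5.35, 5.41 and 5.84 on the Tdrd7 shRNA arrays, against 5.12, 5.33 and 5.37 on the GFP control arrays. Its difference was 0.26 ± 0.20. That probe entered only through the Tdrd7 shRNA group, as it was detected on 2 of the 3 GFP control arrays. Its value on array 1 lay under the lowest detected signal of that array, 5.23.

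Oligoadenylate synthetases make the messenger that activates RNase L, and 3 of the 5 family genes were tested. Oasl2 was at 10.41, 9.82 and 11.57 log2 units on Tdrd7 shRNA arrays 4, 5 and 6, against 10.43, 10.82 and 11.77 on GFP control arrays 1, 2 and 3. The groups overlapped, with array 6 close to array 3, and the difference was -0.41 ± 0.48 (SE). Oas2 was at 6.0001, 4.66 and 7.01 on the Tdrd7 shRNA arrays, against 6.16, 6.09 and 7.30 on the GFP control arrays. It was not detected on array 5, so that value is not well above background, and the difference over all 6 arrays was -0.62 ± 0.58. Oas1g was at 6.23, 5.79 and 6.66 on the Tdrd7 shRNA arrays, against 6.21, 6.13 and 7.38 on the GFP control arrays, with GFP control array 3 above the other 5. The signal of Oas1g came from 1 of its 5 probes, and near-identical copies of the Oas1 genes may share it. Oas1a was detected on no array, although its promoter carries the same ISRE letters as that of Oas1g shown above, and Oasl1 was detected on 2 arrays at most by any probe.

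Among the other antiviral effectors, 9 of 13 genes were tested, 8 with fitted values below 0 and none past the test. Ifit3, of a family that binds viral RNA, had the widest spread of the 30 genes. It was at 11.90, 9.50 and 11.67 log2 units on Tdrd7 shRNA arrays 4, 5 and 6, against 10.47, 11.59 and 12.80 on GFP control arrays 1, 2 and 3. The Tdrd7 shRNA arrays spanned 5.27-fold and the GFP control arrays 5.04-fold, and the group means differed by -0.60 ± 0.74 (SE). Ifit2, its neighbour on chromosome 19, had another order of arrays, at 10.91, 9.68 and 9.69 on the Tdrd7 shRNA arrays, against 9.83, 9.84 and 10.22 on the GFP control arrays. Its highest value was on array 4, which its second probe gave as well. Ifit1 was detected on no array, although its window holds the same pair of ISRE hits as that of Ifit3.

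Mx2, a dynamin-like antiviral GTPase, was at 7.93, 6.15 and 8.41 log2 units on Tdrd7 shRNA arrays 4, 5 and 6, against 6.98, 7.69 and 9.12 on GFP control arrays 1, 2 and 3. It was lowest on array 5, with a difference of -0.43 ± 0.68 (SE). Rsad2, which encodes viperin, was at 7.19, 6.19 and 8.79 on the Tdrd7 shRNA arrays, against 7.27, 6.44 and 8.51 on the GFP control arrays. The groups nearly coincided at -0.01 ± 0.70, while the Tdrd7 shRNA arrays spanned 6.06-fold. Eif2ak2 encodes PKR, the kinase that stops translation on binding double-stranded RNA. It was at 9.43, 10.17 and 11.28 on the Tdrd7 shRNA arrays, against 10.73, 10.11 and 11.37 on the GFP control arrays. Unlike most of the list it was lowest on array 4, and its difference was -0.44 ± 0.48. Bst2, which tethers budding virus, was at -0.50 ± 0.34, Ifi35 at -0.41 ± 0.29, Parp14, an ADP-ribosyltransferase, at -0.45 ± 0.48 and Rtp4 at -0.16 ± 0.38. Rtp4 was not detected on array 5, where its 5.21 log2 units lay under the lowest detected signal of that array, 5.34. Mx1 was detected on 3 arrays, 2 of them Tdrd7 shRNA arrays, and was not tested. Xaf1 was detected on none, and Ifi44 had no probe in the annotation used here.

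Of the interferon-inducible GTPases, which act on the vacuoles of intracellular pathogens, 4 of 5 were tested. Gbp2 was at 9.70, 8.88 and 10.29 log2 units on Tdrd7 shRNA arrays 4, 5 and 6, against 10.38, 9.77 and 10.83 on GFP control arrays 1, 2 and 3. Of the Tdrd7 shRNA arrays, array 6 lay above the lowest control and the other two lay below all controls, and the difference was -0.71 ± 0.39 (SE), with an interval of -1.61 to 0.20. Gbp3 was at 8.57, 7.46 and 9.19 on the Tdrd7 shRNA arrays, against 8.91, 8.44 and 10.12 on the GFP control arrays. Its difference was -0.75 ± 0.53, and array 5 lay below the other 5 arrays. Igtp was at 8.46, 8.07 and 9.72 on the Tdrd7 shRNA arrays, against 9.17, 8.55 and 10.10 on the GFP control arrays, with the same order of arrays within each group as Gbp3. Ifi47 was detected on 4 arrays, 2 of each group, and was not tested.

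The 3 probes of Irgm1, which encodes another GTPase of this family, disagreed. The probe used, as the one with the highest mean, was at 14.01, 13.66 and 13.62 log2 units on Tdrd7 shRNA arrays 4, 5 and 6, against 13.34, 13.92 and 13.72 on GFP control arrays 1, 2 and 3, a difference of 0.10 ± 0.21 (SE). The second probe was at 9.23, 8.84 and 9.96 on the Tdrd7 shRNA arrays, against 9.65, 9.24 and 10.64 on the GFP control arrays, and the third at 5.47, 5.41 and 6.81, against 6.03, 6.03 and 7.49. Both were lowest on array 5 and highest on array 3, as most of the list was, with differences of -0.50 ± 0.40 and -0.62 ± 0.49. The value of Irgm1 therefore depends on the probe, and the mean of its probes was at -0.34. Of the 12 genes with more than 1 probe that entered, Dhx58, Usp18, Ifit3 and Gbp3 had probes that ran nearly parallel over the arrays.

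**Figure D4:**
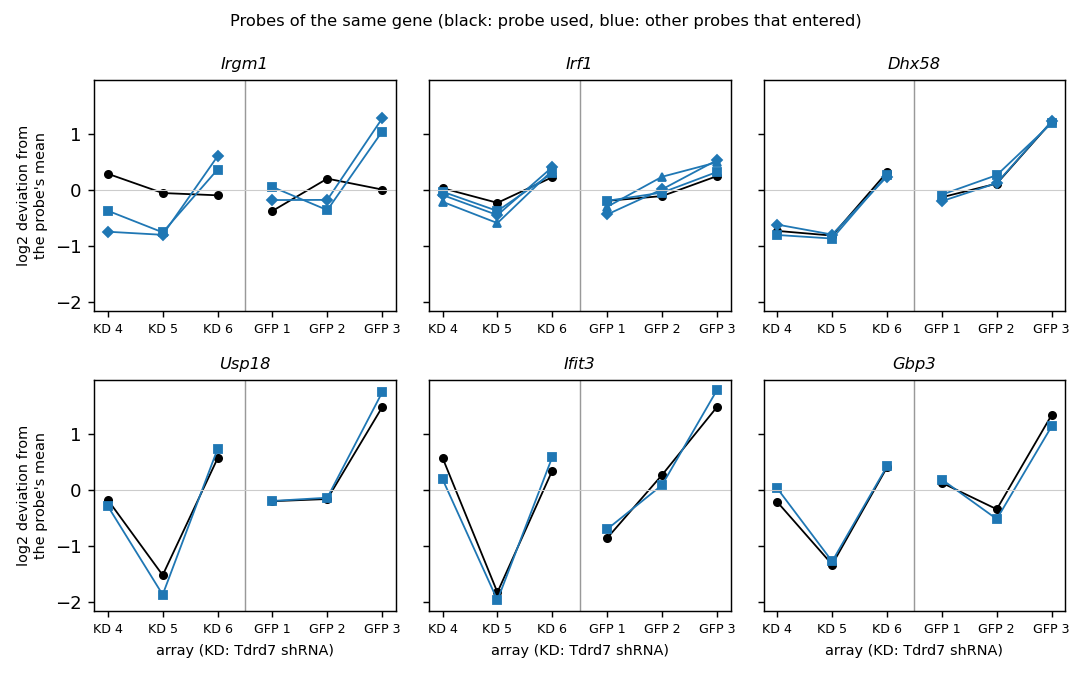
Log2 deviation of each probe from its mean over the 6 arrays (y axis) on the 3 Tdrd7 shRNA arrays (KD, left) and the 3 GFP control arrays (right) for 6 genes with several probes that entered; black marks the probe used. The lines of a gene run together except in Irgm1, where the probe used stays between -0.37 and 0.29 while the other probes are highest on array 3.

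Of the immunoproteasome subunits and the chemokines, Psmb8 and Cxcl10 were lowest on array 5 and had their highest control on array 3, while Psmb9 and Ccl5 differed from most of the list. Psmb8 was at 10.86, 9.84 and 10.88 log2 units on Tdrd7 shRNA arrays 4, 5 and 6, against 10.73, 10.51 and 11.39 on GFP control arrays 1, 2 and 3, a difference of -0.35 ± 0.34 (SE). Psmb9, its neighbour in the antigen-processing locus, was at 7.42, 6.86 and 7.01 on the Tdrd7 shRNA arrays, against 6.93, 6.93 and 7.04 on the GFP control arrays. It was highest on array 4 and had the smallest spread of the 30 genes, with an SD of 0.21. Cxcl10, a chemokine for T cells, was at 5.26, 5.17 and 6.73 on the Tdrd7 shRNA arrays, against 5.31, 5.66 and 6.47 on the GFP control arrays. It was detected on 1 of the 3 Tdrd7 shRNA arrays and on all 3 GFP control arrays, and the lowest detected signal of an array was 5.23 to 5.34 log2 units. Ccl5, also a target of NF-kB, was at 7.29, 8.52 and 8.25 on the Tdrd7 shRNA arrays, against 7.47, 9.13 and 8.03 on the GFP control arrays. In each group it was lowest on the first array and highest on the second. Among the Tdrd7 shRNA arrays no other of the 30 genes had this order, while Bst2, Trim25 and the Irgm1 probe used had it among the controls.

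Genes upstream of these in the pathway were mostly not detected or varied little between arrays. Of 15 interferon genes with a probe, 14 were detected on no array, Ifnb1 among them, and the other was Ifnab at -0.22 ± 0.18 (SE). Of 9 receptor and kinase genes, 7 were tested and 0 passed the limma test. Jak1 was at 8.08, 8.25 and 7.85 log2 units on Tdrd7 shRNA arrays 4, 5 and 6, against 7.64, 7.56 and 7.38 on GFP control arrays 1, 2 and 3. Its groups did not overlap, with a difference of 0.54 ± 0.18 (interval 0.11 to 0.96), a limma p of 0.019 without adjustment and an adjusted p of 1.00. Ifnar1 was detected on no array by its 1 probe, and Ifnar2 was at 6.52, 6.32 and 6.28 log2 units on Tdrd7 shRNA arrays 4, 5 and 6, against 6.34, 6.40 and 6.26 on GFP control arrays 1, 2 and 3. These 7 genes had a median SD of 0.16 between arrays of 1 group, and the 12 tested genes that signal towards interferon had 0.23, against 0.27 over all genes. Among the latter, Sting1 varied more, with an SD of 0.66. Array 5 was the lowest Tdrd7 shRNA array for 8 of these 12 and array 6 the highest for 7, against 29.9% and 28.4% of all genes. Of 7 further transcription factors and negative regulators tested, 6 were lowest on array 5 in that group, and Trex1 and Socs3 had SDs of 0.57 and 0.53. Irf3, the factor that switches on Ifnb1, was at 10.76, 10.61 and 10.81 on the Tdrd7 shRNA arrays, against 10.85, 10.89 and 11.18 on the GFP control arrays. Its groups did not overlap, but the difference of -0.25 ± 0.18 had a limma adjusted p of 1.00.

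Interferon-induced genes outside the list showed a like order of arrays. Of 29 such genes tested, 25 had fitted values below 0, with a median log2 fold change of -0.23, and 0 passed the limma test. GFP control array 3 was the highest control for 22 of the 29, and Tdrd7 shRNA array 5 the lowest of its group for 21. Cmpk2, a neighbour of Rsad2, was at 5.70, 5.78 and 7.43 log2 units on Tdrd7 shRNA arrays 4, 5 and 6, against 6.79, 5.84 and 7.79 on GFP control arrays 1, 2 and 3. The surface protein genes Ly6e and B2m varied little, with an SD of 0.17 and 0.24, and these 3 genes were picked with their values in view. Targets of NF-kB took another course, with 11 genes averaging 0.10, 0.19 and -0.06 on the Tdrd7 shRNA arrays and 0.50, -0.30 and -0.43 on the GFP control arrays. Array 3 was the highest control for 0 of the 11, against 27.2% of all genes. The mean on array 3 leans on Cxcl1, at 8.62, 7.67 and 5.99 on GFP control arrays 1, 2 and 3, with an SD of 1.26. The order of arrays 2 and 3 is therefore not settled by this mean. The 10 reference genes averaged -0.42, 0.35 and 0.05 on the Tdrd7 shRNA arrays and 0.20, -0.11 and -0.06 on the GFP control arrays, so that array 5 was not low for them. Tfrc had an SD of 1.68, and without it, as computed after seeing the data, the other 9 averaged -0.21, 0.24 and -0.03 on the Tdrd7 shRNA arrays and 0.07, 0.01 and -0.07 on the GFP control arrays. In RNA of whole cultures, fewer responding cells and less RNA per cell cannot be told apart.

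**Figure D5:**
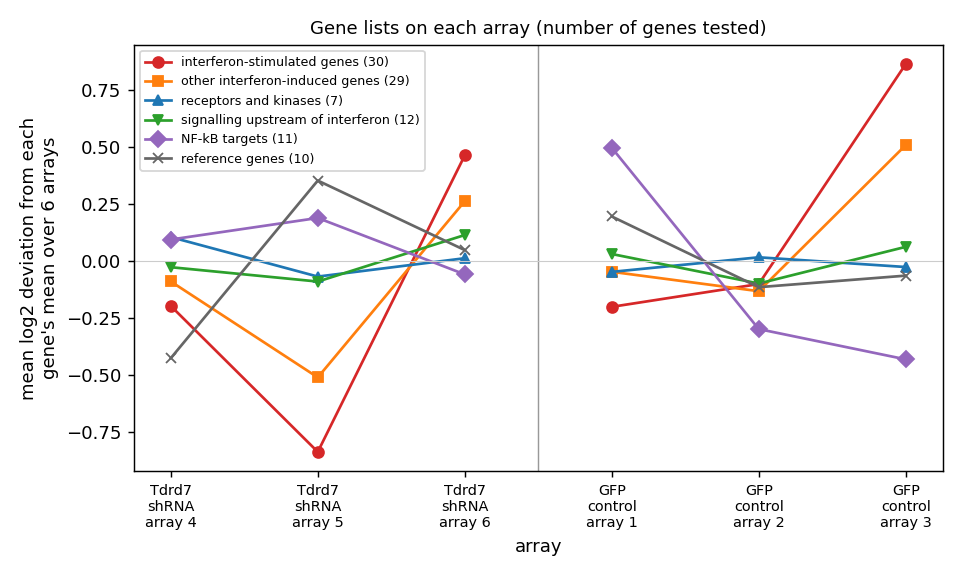
Mean log2 deviation from each gene's mean over the 6 arrays (y axis) for 6 gene lists on the 3 Tdrd7 shRNA arrays (left) and the 3 GFP control arrays (right), with the number of genes tested in brackets. Interferon-stimulated genes range from -0.84 on array 5 to 0.86 on array 3, other interferon-induced genes from -0.51 on array 5 to 0.51 on array 3, and receptors and kinases stay near 0.

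Of the genes with a promoter window, the 13 tested genes with an ISRE hit had a median SD between arrays of 1 group of 0.80 log2 units, and the 9 without had 0.53. This is a description of few genes, with no test, and Irf7, Irf9 and Oasl2 had a wide spread with no hit in this window. The non-member genes whose levels ran most like the mean of the 30 genes over the 6 arrays were Dnajc30, Myd88, Caml, Tmed10, Bicc1, Cdkn2c, Nup93, Trim34a, 4632427E13Rik, Mindy1, Cxcl12 and Emc10. Of these, Trim34a was on the list of other interferon-induced genes, and Myd88, an adaptor of Toll-like receptors, on that of upstream signalling. Trim34a was at 5.58, 4.97 and 6.39 on Tdrd7 shRNA arrays 4, 5 and 6, against 5.92, 5.95 and 7.42 on GFP control arrays 1, 2 and 3. That spread was wide, but 4.97 on array 5 lay under the lowest detected signal of that array, 5.34. Trim34a entered only through the GFP control group, with detection on at most 2 Tdrd7 shRNA arrays. Tmed10 lay between 11.47 and 11.76 on all arrays. Likeness was ranked by Pearson's r over 6 arrays that share their normalization, and 3.58% of all non-member genes had an r above 0.8.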

How the data were processed

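Members and lists were chosen with earlier results of these data known. RNA of 6 samples of 21EM15 cells, 3 with a Tdrd7 shRNA construct and 3 with a GFP construct, was column-extracted, treated with DNase and labelled with biotin, per the labels' protocols. The authors deposited a scanner table with a linear intensity and a detection p-value per probe and array, per the file headers, and a processed intensity table whose normalization is not given in the sources used here. Scanner columns name the group but not the replicate, so they were fitted by group. No probe had the same intensity on 2 arrays.

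Values were corrected, quantile normalized and put on the log2 scale by the neqc function (limma 3.58.1, R 4.3.3; offset 16, background from the detection p-values; the deposited values were intensities, not log2). The offset understates changes of dim genes. The detection filter (p under 0.05 on every array of a group) kept 16349 of 45281 probes. By the platform annotation 34885 probes had 1 symbol, 18 had several and 10378 had none; 34807 matched a RefSeq gene identifier and 0 were renamed. For a gene with several probes, the brightest on average was taken. All 6 arrays entered 1 fit (lmFit, eBayes) with no covariate, and with Benjamini-Hochberg adjustment over 9200 genes, which was tested on simulated data. The number of arrays limits the precision. Values on every array were required for 18 genes: those past the threshold or with groups apart, the 8 with the largest change, the 8 with the largest SD, the 4 with the highest mean, and Isg15, Irf7, Irf9, Stat2, Ddx58, Ifih1 and Eif2ak2 where tested. The 12 other genes most like the members by Pearson's r, and Tdrd7, Ifnb1, Ifnar1, Ifnar2 and Irf3, were named by rule; values of further genes were added with the data in view. Alternatives were other corrections, scalings, filters, probe rules and variance settings, the authors' table, and leaving out each array.

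Plots were made in Python 3.11.15 (matplotlib 3.10.9).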

Additional observations from a re-analysis of the deposited data

How the results depend on the processing

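Across the 19 alternatives, 0 interferon-stimulated genes passed an adjusted p of 0.05 in limma. The count over all genes was 0 except when every probe was fitted by itself, where 1 probe passed, and the cause was not tested. In fits that left out 1 array, the median log2 fold change of the members tested ranged from -0.79 to -0.06, their median SD within groups from 0.61 to 0.75, and Tdrd7 from -2.15 to -1.65. Of the 18 genes required in full, 11 kept their sign under every alternative that gave a value, and 7 did not, with the cause not tested. In these fits Rsad2 ranged from -0.72 to 0.58, Stat2 from -0.52 to 0.31, Ifit3 from -1.18 to 0.16, Mx2 from -0.90 to 0.24, Irf7 from -1.05 to 0.0080, Irf1 from -0.082 to 0.16 and Irgm1 from -0.057 to 0.22. Rsad2 was at 0.019 without background correction and 0.0084 with an offset of 50. When probes of a gene were averaged, Irf1 was at -0.10 and Irgm1 at -0.34, and with array weights they were at -0.028 and -0.0014. The mean deviation of the members kept its sign on arrays 2, 3, 5 and 6 under each alternative tried for it. Without normalization between arrays it was 0.079 on array 6 and turned on arrays 4 (0.067) and 1 (0.090), and the median SD was 0.59 for the members and 0.42 for all genes.

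At an unadjusted limma p under 0.05 the count over all genes was 303. It was 98 when arrays were not normalized to each other, 782 with no detection filter, 528 with every probe by itself, 814 with array weights, 474 without Tdrd7 shRNA array 5 and 109 without GFP control array 3. With the replicate block, fitted on the authors' processed values, 0 genes passed, Tdrd7 was at -1.63 and the median of the members was at -0.37; the unadjusted count was 432 with the block and 257 without it, and 9 and 0 of the members. Same-numbered samples of that table had deviations from their group means that correlated over all genes at -0.10, 0.13 and 0.59, and they were treated as unpaired. The members' mean deviation was -0.04, -0.48 and 0.52 in Tdrd7 shRNA replicates 1, 2 and 3, against -0.33, -0.24 and 0.57 in the GFP control replicates. Its sign was thus shared within each replicate number. Whether the spread of the members follows the replicate number was not tested. The scanner columns carry no replicate number, so the block was not fitted on them, and slide was not run because the files name none. Genes near the lowest detected signal cannot be ordered below it.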
